A study of Drosophila melanogaster with 18 samples.

Results

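Odorant-binding proteins are small secreted proteins that were first found in the fluid around olfactory neurons. There they bind hydrophobic odour molecules and pheromones at the sensillum wall, near the receptors on the neuron. In Drosophila melanogaster many family members are made outside the antenna as well, in taste hairs, in the male reproductive tract, where some are passed to the female with the semen, and in fat body, glia and gut. The genes described here are the 51 entries, of 16747 in each deposited count table, whose symbol begins with Obp and a digit. The related gene lush, an odorant-binding protein of pheromone-sensing sensilla, is not among them because of its symbol and is counted with the other genes of odour reception.

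RNA was measured by sequencing of whole flies aged 5 days in 6 groups with 3 libraries each. For the founder flies, F0, the labels name 10 strains: Canton-S, Harwich, BER_2, DGRP-100, Wild_1A and Oregon-R-C, with w1118, mwh (multiple wing hairs), flr3 (flare3) and a stock of Oregon R with flare3 (ORR, flr3). INT and NINT are labelled genetically heterogenous and were taken at generation F12. The labels do not spell out either name and give no treatment, and the title of the series concerns intelligence and longevity. Each line was sampled in males and in females. The labels do not say that replicates are separate cultures, and the p-values measure only the spread between these libraries, which may be technical.

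Library totals were 31787571 to 39227140 counts in males and 31605198 to 58332629 counts in females, and ribosomal RNA entries took 1.84% to 8.80% of the counts in males and 5.94% to 36.3% in females. Levels are CPM, counts scaled to the library total times a TMM factor fitted over all 18 libraries. TMM factors were 0.429, 0.643 and 0.806 in F0 females 1 to 3 and 0.798, 1.03 and 0.908 in INT females. They were 1.15, 1.17 and 1.18 in NINT females and 1.08 to 1.22 in males. A factor under 1 raises the CPM of its library. Tests are edgeR's quasi-likelihood test with Benjamini-Hochberg adjustment over all genes of a comparison, a call being an adjusted p under 0.05. Several libraries stood apart. Yolk protein RNA (Yp1, Yp2 and Yp3 together), which females make, summed to more than 500 CPM in F0 males 1 and 2 and NINT males 2 and 3 (highest 1019 CPM), against 5.80 to 113 CPM in the other 5 males. The flight muscle actin Act88F stood above 1000 CPM in F0 females 1 and 2 and INT female 3, and in F0 male 1. In the whole fly fewer cells of a type and less RNA per cell cannot be told apart.

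All 51 genes had counts in at least 1 library and 31 had counts in all 18. They are compact genes, with 398 to 1648 exon bases (median 645) in the annotation of dm6. The annotation puts 29 on chromosome arm 2R, 12 on 3R, 6 on X, 2 on 2L and 2 on 3L. In 10 clusters, defined by gaps of at most 20 kb, lay 33 of them, the largest cluster being Obp56a to Obp56f with 6 genes. Neighbours can be very close: 48 bases separate Obp57c from Obp57b, and 108 bases separate Obp19b from Obp19c. After the filter on low counts 42 members entered the tests in males and between the sexes and 33 entered those in females. The 9 genes left out throughout were Obp46a, Obp47a, Obp47b, Obp50d, Obp50e, Obp56b, Obp56c, Obp57e and Obp58d. All but Obp47b stayed at or below 14 counts and 0.328 CPM in every library. Females alone also lost Obp22a, Obp50a, Obp50b, Obp50c, Obp56f, Obp56i, Obp58b, Obp58c and Obp73a, and Obp50b, Obp50d, Obp56i and Obp58c had 0 counts in all 9 female libraries.

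The family's summed level was higher in males, where it ranged from 2182 to 3534 CPM over the 9 libraries, than in females, where it ranged from 787 to 1507 CPM. The 5 highest genes of a library made up 71.6% to 82.3% of its sum. Per kb of exon, Obp56g, a protein of the ejaculatory bulb that reaches the female in the seminal fluid, was the highest member in all 3 male groups, with group means of 1490.1, 1545 and 1076 CPM per kb in F0, INT and NINT. In F0 females the highest was Obp99c, at 699 CPM per kb. In INT and NINT females it was Obp56d, an abundant gene of antenna and mouthparts, at 295 and 327 CPM per kb. These levels spanned the whole scale of the heat map of the 51 genes. In it the genes of the male reproductive tract are higher in the male libraries than in the female ones, except Obp56e. Their male levels and the size of the difference vary from gene to gene.

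**Figure D1:**
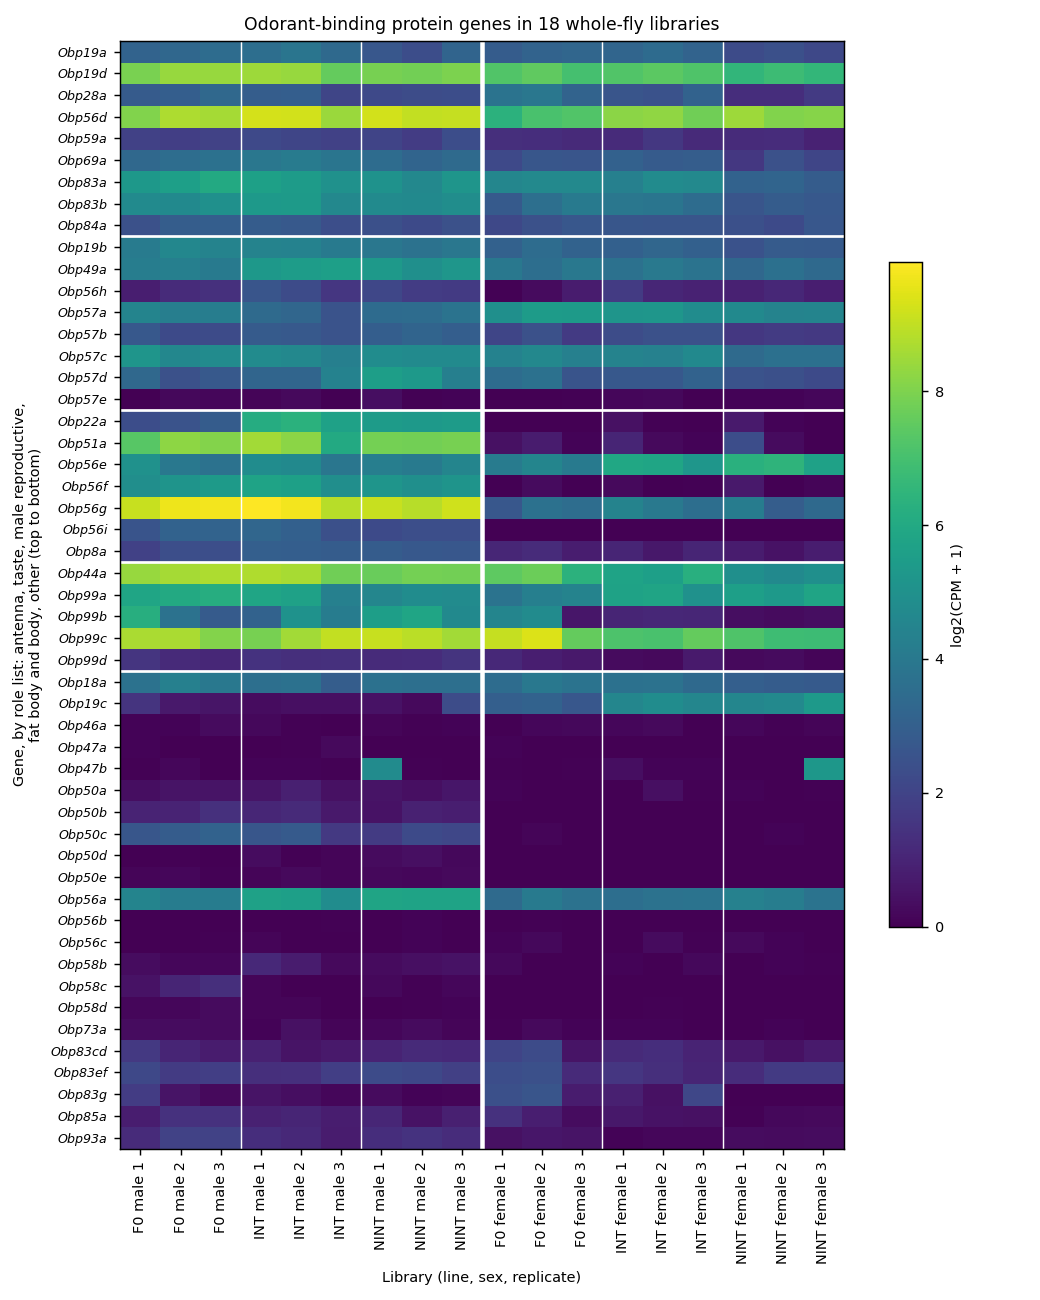
Level of each of the 51 genes, as log2(CPM + 1), in the 18 libraries (columns, 3 per group, males on the left), with rows grouped by role list. Genes of the male reproductive list are higher in the male columns except Obp56e, and Obp47b is visible in 2 libraries only, NINT male 1 at 26.8 CPM and NINT female 3 at 37.5 CPM.

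Between INT and NINT flies, the members that passed the test were higher in INT females, and most were antennal genes. The role lists were chosen with earlier results of these data known, so counts and medians by list are description only. Of the 33 tested members, 4 were higher in INT females and 0 lower, where 0.995% of all 13169 genes were called, 0.888% higher and 0.106% lower. Groups did not overlap for 18 members higher in INT and 2 lower. Of all genes 37.7% did not overlap, 18.6% higher and 19.1% lower. The median log2 fold change was 0.58 over the members and 0.01 over all genes. Of the called genes 3 belonged to the antennal list of 9, which had 8 members above 0 and a median of 1.07. The other belonged to the taste list, in which all 7 tested members were above 0, with a median of 0.58.

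Obp83a, also called OS-F, is made by support cells of antennal sensilla that detect pheromones and other odours. It measured 19.2, 26.8 and 24.5 CPM in INT females 1 to 3 and 7.80, 8.18 and 6.34 CPM in NINT females. All INT values stood more than 2-fold above all NINT values (log2 fold change 1.66, SE 0.17, adjusted p = 0.0108). F0 females, at 22.5, 24.5 and 24.4 CPM, stood level with INT females, with a log2 fold change of INT over F0 of -0.03 (SE 0.17). In males the levels were 48.3, 42.6 and 31.3 CPM in INT and 32.1, 23.5 and 34.8 CPM in NINT, which overlapped (log2 fold change 0.37, SE 0.23, adjusted p = 0.444).

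Obp19a, another antennal gene, was 8.46, 10.2 and 7.91 CPM in INT females and 3.78, 4.38 and 3.50 CPM in NINT females, without overlap (log2 fold change 1.19, SE 0.20, adjusted p = 0.0298). Obp28a, an abundant antennal protein, was 5.10, 4.71 and 7.70 CPM in INT females and 1.48, 1.46 and 2.19 CPM in NINT females (log2 fold change 1.78, SE 0.31, adjusted p = 0.0357). Again every INT library was above every NINT library. Obp57c, a gene of taste sensilla, was 20.5, 19.5 and 24.9 CPM in INT females and 9.78, 11.7 and 11.7 CPM in NINT females (log2 fold change 0.98, SE 0.16, adjusted p = 0.0298). Here too the groups stood apart. In males Obp57c was 26.8, 23.9 and 18.7 CPM in INT and 27.5, 26 and 25.8 CPM in NINT, which overlapped, and the interaction with sex missed the threshold at 1.17 (SE 0.25, adjusted p = 0.0666).

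The other antennal genes gave values without calls in females. Obp83b (OS-E), which lies 947 bases from Obp83a and is made in the same sensilla, was 14.2, 13.3 and 10.4 CPM in INT and 5.05, 6.30 and 5.69 CPM in NINT females (log2 fold change 1.16, adjusted p = 0.143). Obp69a, a protein studied in the response to a male pheromone, was 7.54, 6.21 and 6.62 CPM in INT and 2.03, 4.55 and 3.18 CPM in NINT (log2 fold change 1.07, adjusted p = 0.157). For both genes the lowest INT value was above the highest NINT value. Obp59a, known for the sensing of humidity, and Obp84a had log2 fold changes of 0.34 and 0.20. Obp19d, a broadly made antennal and taste gene, stood at 0.66, and Obp56d was the one antennal gene below 0, at -0.14.

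In males no member was called between INT and NINT by edgeR's test, 10 of 42 had an unadjusted p under 0.05, and of all 15051 genes 0.0399% were called. DESeq2 called 3 members, with 6.05% of all genes called by that test. Groups did not overlap for 6 members higher and 5 lower in INT, where 10.6% and 9.06% of all genes, together 19.6%, did not overlap. INT male 3 was the lowest INT library for many members, as for Obp51a at 64.0 CPM beside 375 and 289 CPM, and 14 members were called without that library, when 26.1% of all genes were called too. Its summed level of ejaculatory duct and bulb markers was 3142 CPM, against 12780 and 11740 CPM in INT males 1 and 2, and the part of that difference in the result was not tested.

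Over both sexes 5 of 42 members were higher in INT and 0 lower, with 1.95% of all 15304 genes called, 1.36% higher and 0.595% lower. They were Obp83a (log2 fold change 1.05, SE 0.15, adjusted p = 0.00523), Obp19a (log2 fold change 1.06, SE 0.17, adjusted p = 0.00828), Obp28a (log2 fold change 1.14, SE 0.22, adjusted p = 0.0204), Obp69a (log2 fold change 0.85, SE 0.18, adjusted p = 0.027) and Obp83g (log2 fold change 3.77, SE 0.92, adjusted p = 0.0494). In males Obp69a was 14.4, 16.3 and 13.5 CPM in INT and 10.3, 8.13 and 9.74 CPM in NINT, so that both sexes stood apart in the same direction. Obp19a in males was 10.9, 13.4 and 9.45 CPM in INT and 5.47, 4.09 and 8.05 CPM in NINT, also without overlap. Obp83a and Obp19a stayed called when any 1 of the 12 libraries was left out, with adjusted p up to 0.0219 and 0.0356. Obp28a stayed called in 4 of those 12 fits, Obp69a in 2 and Obp83g in 1, with adjusted p up to 0.07, 0.102 and 0.139. Without INT male 3 there were 12 called members, with 17.5% of all genes called. Leaving out the 4 males with yolk protein RNA keeps 1 NINT male, and the fit assumes that it varies like the other groups. That fit cannot decide which calls hold. The antennal list had 4 called of 9, 8 above 0 and a median log2 fold change of 0.77.

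Obp83g rested on few reads in NINT. It had 131 counts over the 3 INT female libraries and 2 counts over the 3 NINT female libraries, a ratio of 114 with an exact 95% interval of 30.9 to 949 that covers counting error only. INT female 3, at 3.31 CPM, was far above the other two INT females, at 0.849 and 0.353 CPM. F0 females showed the same unevenness, with 4.31, 5.17 and 0.668 CPM. The high libraries, F0 females 1 and 2 and INT female 3, were those with Act88F above 1000 CPM. Without those 3 females the log2 fold change of INT over NINT for Obp83g was 5.27 in females (adjusted p = 0.0274) and 3.03 over both sexes (adjusted p = 0.062), called in the first alone.

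The interaction of sex with the difference between INT and NINT was called for no member by edgeR's test, with 9 of 42 at an unadjusted p under 0.05. Of all 15304 genes 0.268% were called. DESeq2 called 5 members, with 3.13% of all genes called by it: Obp57b, Obp57c (log2 value 1.06, adjusted p = 0.00494), Obp57d, Obp83a (1.12, adjusted p = 0.0338) and Obp83g. Without INT male 3, edgeR's test called Obp57c (1.02, adjusted p = 0.0347) and Obp57d (2.61, adjusted p = 0.0235), with 4.55% of all genes called.

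**Figure D2:**
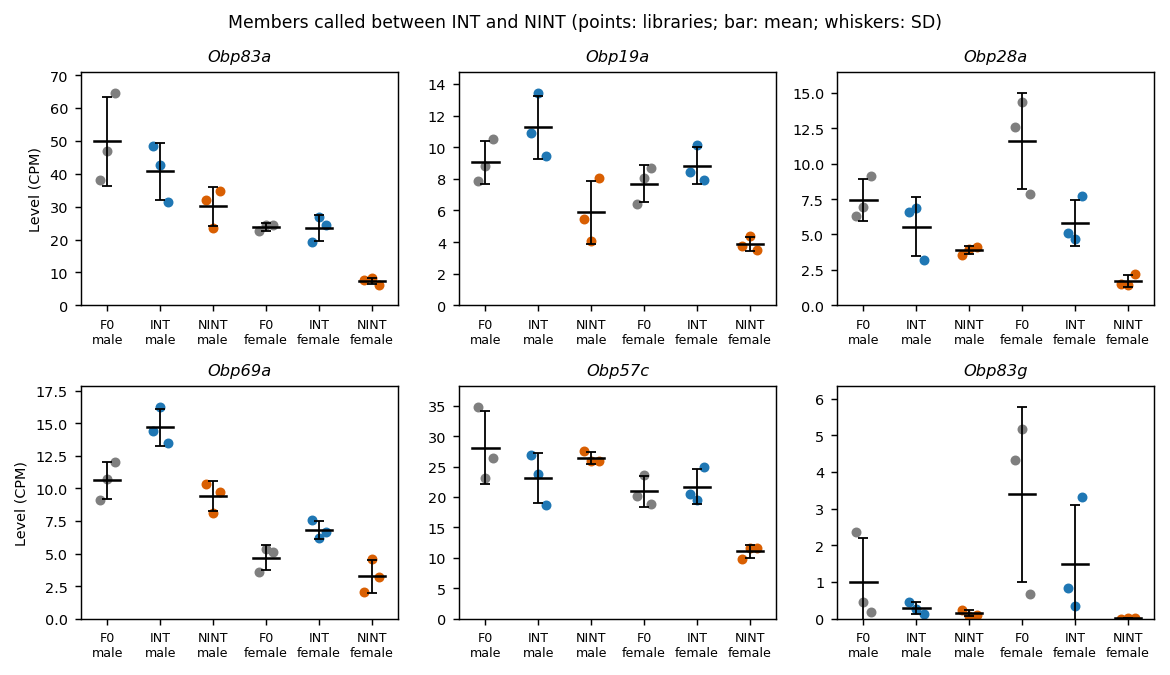
Level in CPM of the 6 genes called between INT and NINT in females or over both sexes, with a point for each library, a bar for the group mean and whiskers for the SD, n = 3 per group. NINT females are the lowest group for Obp83a, Obp19a, Obp28a and Obp57c, with means of 7.44, 3.89, 1.71 and 11.0 CPM.

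The 4 calls in females depended on single libraries, and so did calls over all genes. Without INT female 3, 1.14% of all genes were called. In each of the other fits the share was 0.0301% to 0.142%, against 0.995% with every library kept. The lost calls are therefore not particular to these members. Obp83a lost its call without INT female 2 or without NINT female 1, with adjusted p between 0.0257 and 0.0681 over the 6 fits. Obp19a stayed called in 1 of the 6 fits, the one without INT female 3, and Obp28a and Obp57c in 0. Log2 fold changes stayed between 1.56 and 1.79 for Obp83a, 1.08 and 1.29 for Obp19a, 1.5 and 1.99 for Obp28a, and 0.84 and 1.05 for Obp57c.

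Markers of flight muscle, neurons and glia lay on the same side in that comparison, without passing the test. In INT against NINT females all 7 flight muscle markers, all 10 neuron markers and all 8 tested glia markers were above 0, with median log2 fold changes of 2.15, 0.76 and 0.74, and 0 of each were called. Other lists had medians below 0. They were -0.30 for ovary, -1.48 for accessory gland, -0.92 for ejaculatory duct and bulb, -0.21 for fat body, -0.12 for testis and -0.07 for eye markers. The eye list held 1 call, retinin, which was higher in INT. Of the 12 markers of antenna and olfactory neurons 5 were tested, 4 were above 0, 0 were called and the median was 0.48. Orco, the co-receptor of most odorant receptors, was 2.37, 2.41 and 2.89 CPM in INT and 1.73, 2.96 and 1.78 CPM in NINT females (log2 fold change 0.25). Without the 3 female libraries with high Act88F, an alternative added after the data were seen, 12 members were called, when 6.14% of all genes were. Log2 fold changes of Obp83a, Obp19a, Obp28a and Obp57c were then 1.63, 1.26, 1.52 and 0.86.

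Other genes of odour reception were counted from a list of 27, of which 26 were in the tables. In INT against NINT females 2 of 17 tested were higher and 0 lower, where 0.888% of all genes were called higher and 0.106% lower. In the list 14 were above 0, with a median of 0.76. The called genes were Jhedup, an esterase, and antdh, a dehydrogenase of the antenna. Jhedup was 8.60, 9.27 and 12.1 CPM in INT females and 3.93, 4.55 and 3.21 CPM in NINT females (log2 fold change 1.37, adjusted p = 0.0298). The values of antdh were 5.10, 5.59 and 6.34 CPM and 1.97, 2.34 and 2.76 CPM (log2 fold change 1.27, adjusted p = 0.0392). Neither gene overlapped between the groups. Over both sexes lush, Jhedup, antdh and a10 were higher and Or47b lower among 24 tested, where 1.36% of all genes were called higher and 0.595% lower. The lower value of Or47b rests on NINT male 1 and NINT female 3, with 2517 and 4190 counts. Every other library had at most 21, as described under other observations. Lush was 3.36, 2.88 and 4.74 CPM in INT and 1.92, 1.98 and 1.56 CPM in NINT females (over both sexes log2 fold change 0.70, adjusted p = 0.0493).

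Males of both F12 lines were compared with F0 males, and the comparisons share the F0 libraries. A few members passed the test in each, among them seminal fluid and taste genes. Of 42 tested, 4 were higher and 2 lower in INT males, where 1.82% of all genes were called, 1.14% higher and 0.678% lower. In NINT males 6 were higher and 1 lower, where 5.04% of all genes were called, 2.53% higher and 2.51% lower. The median log2 fold change was 0.00 in INT and -0.02 in NINT, beside -0.03 and 0.00 over all genes.

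Among genes of the male reproductive tract, Obp22a, a seminal fluid protein, had the largest fold change of the members called higher in each line. It measured 4.03, 4.89 and 6.38 CPM in F0 males, 68.7, 79.1 and 50.1 CPM in INT males and 42.2, 39.7 and 42.2 CPM in NINT males. Each F12 library was well above each F0 library. The log2 fold change was 3.74 in INT (SE 0.20, adjusted p = 0.000505) and 3.13 in NINT (SE 0.20, adjusted p = 0.000598). Both calls held in all 6 fits that left out 1 library each.

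Obp8a, another seminal fluid protein gene, was 2.83, 4.25 and 4.19 CPM in F0, 6.96, 6.79 and 6.45 CPM in INT and 6.43, 5.62 and 5.43 CPM in NINT males. The groups did not overlap, with log2 fold changes of 0.91 (adjusted p = 0.043) and 0.75 (adjusted p = 0.0473). The call in INT held in 1 of 6 fits with a library left out, the one without INT male 3, and that in NINT in 0. The other 5 members of this list were not called in males. Obp56g was 545, 820.0 and 848 CPM in F0, 969, 863 and 463 CPM in INT and 540.4, 466 and 591 CPM in NINT males, which overlapped between F0 and both lines. Obp51a, the seminal list's other abundant gene, overlapped as well, at 162, 299.6 and 267 CPM in F0, 375, 289 and 64 CPM in INT and 229, 223 and 234 CPM in NINT males. Of 10 accessory gland markers 0 were called in either line, with median log2 fold changes of 0.05 in INT and -0.70 in NINT.

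Taste genes were called in both directions. Obp49a, known to take part in the suppression of sweet taste by bitter compounds, was 17.4, 18.7 and 16.2 CPM in F0 males, 38.6, 43.9 and 47.8 CPM in INT males and 40.0, 29.5 and 36.1 CPM in NINT males. All 6 F12 libraries lay above F0, with log2 fold changes of 1.39 (SE 0.18, adjusted p = 0.0105) and 1.13 (SE 0.18, adjusted p = 0.014). Obp57a was 21, 18.1 and 17.3 CPM in F0 and 9.82, 8.78 and 4.85 CPM in INT males, lower in every INT library (log2 fold change -1.23, SE 0.22, adjusted p = 0.0325). In NINT males it was 9.98, 10.4 and 12.6 CPM, below every F0 library, with a log2 fold change of -0.67 that was not called (adjusted p = 0.0947).

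Its neighbour Obp57b, 359 bases away, was 5.58, 3.71 and 3.81 CPM in F0 and 6.90, 8.05 and 6.78 CPM in NINT males (log2 fold change 0.84, SE 0.19, adjusted p = 0.0444). Obp57d, a gene linked in flies to the response to acids of a host fruit, was 9.13, 4.56 and 5.76 CPM in F0, 8.43, 8.46 and 19.9 CPM in INT and 46.6, 39.4 and 18.4 CPM in NINT males. NINT stood above F0 in every library (log2 fold change 2.54, SE 0.53, adjusted p = 0.0366), while INT overlapped with NINT through INT male 3. The annotation gives Obp57d the same 1488 exon bases as Cpr57A, a cuticle protein gene on the same strand. Cpr57A had 57 to 99 counts in F0 males and 201 to 424 counts in NINT males, or 0.113 to 0.317 of the count of Obp57d over all libraries, so the level of Obp57d is uncertain.

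Of the members with no role list, Obp56a was 21.3, 17.2 and 17.1 CPM in F0, 50.4, 47.4 and 27.7 CPM in INT and 54.2, 53.3 and 53.4 CPM in NINT males. The NINT replicates were within 1 CPM of each other and far above F0. The log2 fold changes were 1.21 (SE 0.19, adjusted p = 0.0232) and 1.65 (SE 0.19, adjusted p = 0.00494). Obp58c was low throughout, with 129 counts in F0, 6 in INT and 16 in NINT males. Its levels were 0.407, 1.03 and 1.51 CPM in F0, 0.0892, 0.0250 and 0.0225 CPM in INT and 0.171, 0.0546 and 0.131 CPM in NINT, lower in every F12 library (log2 fold change -4.27, SE 0.70, adjusted p = 0.0254; in NINT -2.86, adjusted p = 0.0391).

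Of the 6 calls in INT males, Obp22a alone held in all 6 fits that left out a library, and 1 to 8 members were called in those fits. Obp49a lost its call without F0 male 2 or F0 male 3. Obp56a and Obp58c kept theirs only without F0 male 1 or INT male 3, and Obp57a only without INT male 3. In NINT males Obp22a and Obp56a held in all 6 fits, and 2 to 6 members were called. Obp49a kept its call only without F0 male 1 or NINT male 2, and Obp57b, Obp57d and Obp58c only without F0 male 1. Adjusted p in these fits reached at most 0.183 over all the genes named here. Leaving out the 4 males with yolk protein RNA left 1 F0 and 1 NINT male, each assumed to vary like the INT males. That fit cannot decide which calls hold. Fold changes kept their size: Obp22a was then at 3.41 in INT and 2.88 in NINT, Obp49a at 1.48 and 1.45, and Obp56a at 1.33 and 1.82.

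Females of the F12 lines were compared with F0 females in the same way, again with F0 libraries shared. In INT females 3 of 33 members were higher and 0 lower, with 2.12% of all 13169 genes called, 1.19% higher and 0.926% lower. In NINT females 4 were higher and 15 lower, with 22.5% of all genes called, 7.59% higher and 14.9% lower. The median over the members was -0.03 in INT and -0.77 in NINT, beside -0.01 and -0.01 over all genes. In INT females, Obp19c lost its call without F0 female 2 or INT female 2 (adjusted p up to 0.0602). Obp56e and Obp99a lost theirs without any of F0 females 1 and 2 and INT females 1 and 2 (adjusted p up to 0.108 and 0.14), and 0 to 13 members were called over the 6 fits. The 13 came without F0 female 3, when 32.2% of all genes were called. Without the 3 females with high Act88F, Obp99a alone of these 3 stayed called (log2 fold change 1.35), beside 2.17 and 1.86 for Obp19c and Obp56e.

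Obp19c was 6.99, 7.71 and 5.52 CPM in F0, 22.2, 27.2 and 22.6 CPM in INT and 22.5, 24.5 and 39.4 CPM in NINT females. All 6 F12 libraries stood above the founders, with log2 fold changes of 1.83 (SE 0.24, adjusted p = 0.0121) and 2.08 (SE 0.24, adjusted p = 0.00212). In males it stayed under 4 CPM, and NINT male 3 (3.89 CPM) and F0 male 1 (1.84 CPM) were its highest male libraries. They held 805 and 1019 CPM of yolk protein RNA, with 178 and 77 counts of Obp19c. NINT male 2 and F0 male 2 held 701.8 and 500 CPM of yolk protein RNA but only 7 and 25 counts of Obp19c. Ovary markers were all above 0 in both lines, 11 of 11, with 1 called higher in INT and 4 in NINT, and median log2 fold changes of 0.52 and 0.82. Their part in the rise of Obp19c was not tested.

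Obp56e, a gene of the male seminal list that was also detected in females, was 16.3, 21.7 and 15.9 CPM in F0, 58.5, 56.5 and 35.8 CPM in INT and 77.6, 86.9 and 50.8 CPM in NINT females. No F12 library reached down to F0. The log2 fold changes were 1.48 (SE 0.26, adjusted p = 0.0228) and 1.98 (SE 0.26, adjusted p = 0.00363). The antisense RNA CR44509 covers 449 of its 532 exon bases on the opposite strand, and held 0.601 to 0.773 of the Obp56e count in all 18 libraries. The strand setting was not given in the sources used here, and the reads of the overlapping genes cannot be told apart.

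Obp99a, made in many tissues of head and body, was 12.7, 18.5 and 20.8 CPM in F0, 51.8, 53.9 and 31.2 CPM in INT and 47.6, 39.2 and 54.5 CPM in NINT females, all F12 libraries above F0. The log2 fold changes were 1.38 (SE 0.26, adjusted p = 0.0298) and 1.42 (SE 0.26, adjusted p = 0.0103). Obp56d, the fourth gene higher in NINT, was 82, 133 and 150.1 CPM in F0, 289.8, 311 and 215 CPM in INT and 358, 266 and 279.9 CPM in NINT females. It was called in NINT (log2 fold change 1.29, SE 0.25, adjusted p = 0.0126), though not without NINT female 1, and stood just outside the threshold in INT (log2 fold change 1.15, adjusted p = 0.0533).

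Genes lower in NINT females included 4 of the 9 antennal genes. Obp83a fell from the F0 values given above (log2 fold change -1.69, SE 0.17, adjusted p = 0.00132), and Obp28a, at 12.5, 14.4 and 7.84 CPM in F0 females, had the larger fall (log2 fold change -2.77, SE 0.32, adjusted p = 0.00212). Obp19a, at 6.39, 8.02 and 8.66 CPM in F0, was lower as well (log2 fold change -1.0, SE 0.20, adjusted p = 0.0147). Obp19d was 147, 178 and 125 CPM in F0 and 92.1, 111 and 93.3 CPM in NINT females, all NINT libraries below F0 (log2 fold change -0.62, SE 0.16, adjusted p = 0.0281). The calls of Obp83a and Obp28a held in all 6 fits with a library left out, that of Obp19a in 3, and that of Obp19d in 1, without F0 female 3. Without the 3 females with high Act88F, Obp19d stood at -0.34 and was not called (adjusted p = 0.219), while Obp83a, Obp28a and Obp19a stayed called at -1.71, -2.2 and -1.16.

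In the fat body and haemolymph list 4 of 5 genes were lower in NINT females. Obp44a, known from glia and as a carrier of fatty acids, was 174, 204 and 81.1 CPM in F0 and 29.7, 25.3 and 29.4 CPM in NINT females (log2 fold change -2.46, SE 0.33, adjusted p = 0.00363). INT females were at 53.7, 47 and 74.8 CPM. Obp99c was 531, 682 and 189 CPM in F0, 139.9, 134 and 188 CPM in INT and 145, 112 and 109 CPM in NINT females (log2 fold change -1.95, SE 0.40, adjusted p = 0.016). Obp99b, which in the adult head is known from fat cells of males, was 22, 26.8 and 0.520 CPM in F0, 1.03, 1.18 and 1.08 CPM in INT and 0.295, 0.230 and 0.287 CPM in NINT females (log2 fold change -5.91, SE 1.15, adjusted p = 0.0132). Of these calls Obp44a held in all 6 fits with a library left out. Obp99c held in 2, without F0 female 1 or F0 female 3, and Obp99b in 3, without any F0 female. For these 3 genes F0 female 3 was well below F0 females 1 and 2.

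Obp99d was 1.20, 0.796 and 0.594 CPM in F0 and 0.184, 0.230 and 0.0897 CPM in NINT females (log2 fold change -2.35, SE 0.64, adjusted p = 0.0326), and held in 1 of the 6 fits, without F0 female 3. Without the 3 females with high Act88F, a setting that keeps F0 female 3 alone and assumes that it varies like the other groups, Obp44a stayed called at -1.53. Obp99b, Obp99c and Obp99d then stood at -0.93, -0.63 and -1.81 and were not called (adjusted p = 0.36, 0.0855 and 0.227). In the same comparison all 7 flight muscle markers and 7 of 10 neuron markers were lower, with medians of -4.07 and -1.76. Of 8 glia markers 5 were lower, nrv2, Eaat1, Gs2, alrm and Mdr65, with a median of -1.02 over the list. Of 9 fat body markers 2 were higher and 1 lower, with a median of 0.14. Flight muscle markers summed to 33850, 27720 and 4666 CPM in F0 females 1 to 3, and to between 1565 and 2067 CPM in NINT females.

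Of the 7 tested taste genes 3 were lower in NINT females. Obp57c was 20.2, 23.7 and 18.9 CPM in F0 females and fell in NINT (log2 fold change -0.93, SE 0.16, adjusted p = 0.00869). Obp57a was 29.6, 42.8 and 41.5 CPM in F0 and 24.8, 20.5 and 21.1 CPM in NINT females (log2 fold change -0.79, SE 0.18, adjusted p = 0.0217). Obp57d was 10.3, 11.9 and 5.00 CPM in F0 and 4.80, 4.34 and 3.70 CPM in NINT females (log2 fold change -1.10, SE 0.32, adjusted p = 0.0397), and was not called without the 3 females with high Act88F (log2 fold change -0.23, adjusted p = 0.608). Obp57c held in all 6 fits with a library left out, Obp57a in 2, without F0 female 1 or F0 female 3, and Obp57d in 1, without F0 female 3.

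Among genes with no role list 4 were lower. Obp18a was 10.4, 14.8 and 12.7 CPM in F0 and 7.03, 6.37 and 5.92 CPM in NINT females (log2 fold change -0.99, SE 0.19, adjusted p = 0.0125), without overlap. Obp83g had 304 counts in F0 and 2 in NINT females, a ratio of 245 with an exact 95% interval of 67.1 to 2029 for counting error only (adjusted p = 0.00902). Obp85a was 1.68, 0.765 and 0.247 CPM in F0 and 0.0369, 0.146 and 0.179 CPM in NINT females (log2 fold change -2.85, SE 0.78, adjusted p = 0.0336). Obp83cd was 3.08, 3.80 and 0.421 CPM in F0 and 0.609, 0.355 and 0.664 CPM in NINT females, which overlapped at F0 female 3 (log2 fold change -2.16, SE 0.68, adjusted p = 0.0499). Without the 3 females with high Act88F it stood at 0.37 and Obp85a at -1.02, both not called (adjusted p = 0.746 and 0.575). Obp83g held in all 6 fits with a library left out, Obp18a in 3, without F0 female 1, F0 female 3 or NINT female 1, and Obp85a and Obp83cd in 1, without F0 female 3.

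Among the other genes of odour reception 7 of 17 tested were lower in NINT females than in F0 females and 0 higher, where 14.9% of all genes were called lower and 7.59% higher. They were lush, Jhedup, antdh, Os-C, a10, Pebp1 and nrv3. The dehydrogenase gene antdh was 12.9, 13 and 8.76 CPM in F0 females (log2 fold change -2.30, adjusted p = 0.00141 in NINT), and lush was 4.35, 3.98 and 2.97 CPM (log2 fold change -1.06, adjusted p = 0.0286). In INT females 0 of 17 were called by edgeR's test, with 2.12% of all genes called. In males 0 of 23 were called in INT and 1, nrv3, was lower in NINT, with 1.82% and 5.04% of all genes called.

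**Figure D3:**
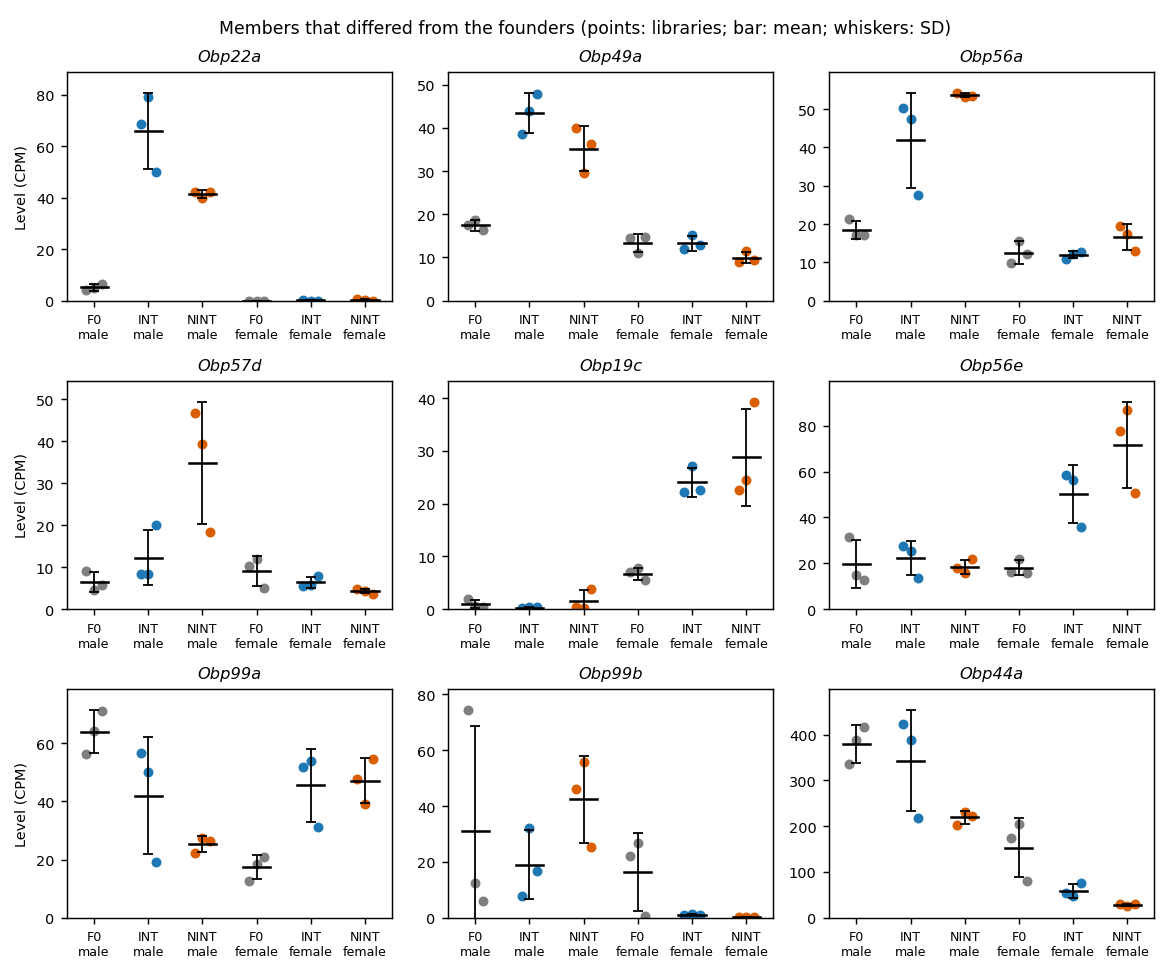
Level in CPM of 9 genes named for their difference from F0, with a point for each library, a bar for the group mean and whiskers for the SD, n = 3 per group. Obp22a, Obp49a and Obp56a are higher in both F12 lines in males, Obp19c, Obp56e and Obp99a are higher in both F12 lines in females, and Obp99b spreads widely in F0 males, from 6.11 to 74.4 CPM.

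Whether a line's difference from F0 depended on sex was tested with an interaction added after the data were seen, taken as the female value of the log2 fold change less the male one. For NINT 11 of 42 members were called, 2 above 0 and 9 below, with 8.15% of all 15304 genes called, 2.95% above and 5.2% below 0, and for INT 1 of 42, with 0.555% called. Obp49a was called in both, at -1.32 in INT (SE 0.23, adjusted p = 0.019) and -1.43 in NINT (SE 0.23, adjusted p = 0.00386). Its female levels, 14.5, 11 and 14.6 CPM in F0, 11.9, 15.2 and 12.8 CPM in INT and 8.98, 11.5 and 9.40 CPM in NINT, overlapped between F0 and both lines. In INT the call was lost without F0 male 1, F0 male 2 or INT female 1 (adjusted p up to 0.0684), and in NINT it held in all 12 fits.

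Obp99a had values on opposite sides in the sexes. In males it was 56.3, 64.3 and 71.3 CPM in F0 and 22.3, 27.5 and 26.3 CPM in NINT, lower in every NINT library but not called (log2 fold change -1.22, adjusted p = 0.0562). With the rise in females the interaction was 2.78 (SE 0.46, adjusted p = 0.00418). The interaction of Obp57d was -3.51 (SE 0.61, adjusted p = 0.00528). The other 8 calls were Obp99c, Obp56e, Obp99b, Obp28a, Obp44a, Obp57b, Obp99d and Obp56a. Leaving out the 4 males with yolk protein RNA keeps 1 F0 and 1 NINT male, so that fit cannot decide which calls hold. The setting without the 3 females with high Act88F keeps 1 F0 female and has the same limit.

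Differences between males and females were far larger. In F0 2 of 42 members were higher in females and 23 lower, with 61.7% of all 15304 genes called, 28.9% higher and 32.8% lower. In INT 4 were higher and 25 lower, with 69.6% of all genes called, 30.5% higher and 39% lower. In NINT 4 were higher and 34 lower, with 73.5% of all genes called, 30.2% higher and 43.3% lower. The median log2 fold change of females over males was -1.04, -1.28 and -1.98 over the members. Over all genes it was -0.05, -0.20 and -0.40. RLE scaling moved the all-gene median in INT to -0.31, so directions near 0 depend on the scaling, while the genes named next lie far from it.

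The male reproductive list set the extremes. Obp56g in females was 5.43, 12.2 and 10.7 CPM in F0, 20.6, 15 and 11 CPM in INT and 16.8, 6.58 and 9.57 CPM in NINT. The log2 fold changes against the male values above were -6.29, -5.62 and -5.60 (adjusted p = 1.06e-07, 1.65e-07 and 1.77e-07). Obp51a in females was 0.360, 0.674 and 0.0742 CPM in F0, 1.03, 0.177 and 0.0697 CPM in INT and 4.02, 0.209 and 0 CPM in NINT. The log2 fold changes were -9.39, -9.18 and -7.33 (adjusted p = 8.00e-05, 7.48e-05 and 0.000208). In both genes every male library was above every female library of its line.

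Obp56i was 4.94, 7.66 and 7.95 CPM in F0, 8.57, 7.16 and 4.36 CPM in INT and 3.66, 4.26 and 4.27 CPM in NINT males and had 0 counts in females. With 3 counts over the 3 female libraries taken as the floor, it was at least 225-fold higher in F0 males, at least 203-fold higher in INT males and at least 213-fold higher in NINT males. Obp56f was 28.9, 34.6 and 41 CPM in F0, 52.9, 49.3 and 28.6 CPM in INT and 34.8, 29.9 and 34.2 CPM in NINT males, and at most 0.590 CPM in any female library. Obp22a had 664 counts in F0 males and 0 in F0 females, which is at least 168-fold higher. In INT and NINT its log2 fold changes were -9.04 and -7.42.

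NINT female 1 was the highest female library for 3 genes of this list: Obp51a at 4.02 CPM, Obp22a at 0.627 CPM and Obp56f at 0.590 CPM. Its accessory gland markers summed to 125.6 CPM, against 29.8 to 83.6 CPM in the other 8 female libraries and 2500.2 to 7324 CPM in males. Their part in these female values was not tested. Obp50b and Obp50c showed the same pattern without a role list. Obp50c was 5.32, 6.32 and 7.66 CPM in F0, 5.31, 6.04 and 2.11 CPM in INT and 2.29, 3.69 and 3.33 CPM in NINT males, and at most 0.0918 CPM in females. Obp50b had 154, 128 and 86 counts in F0, INT and NINT males and 0 in females, at least 38.9-fold, 30.0-fold and 35.0-fold higher. The Ensembl annotation gives both genes the same 1648 exon bases on 1 strand. In the deposited tables the Obp50b entry is 264 bases wide and lies inside the Obp50c entry of 1648, so their split is uncertain.

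A few members were higher in females. Obp57a was higher in all 3 lines, at log2 fold changes of 1.01, 2.07 and 1.01 (adjusted p = 0.00131, 2.22e-06 and 0.00109). Its female values in INT were 35, 36.3 and 27.2 CPM. Obp19c was higher in all 3 as well, at 2.80, 6.30 and 4.25 (adjusted p = 0.0055, 2.22e-05 and 0.000241), while its neighbour Obp19d, 837 bases away, was lower at -1.01, -0.92 and -1.25. Obp56e was called higher in INT and NINT females (1.18 and 1.96), Obp83g in INT females (2.38) and Obp99a in NINT females (0.89). Obp99a was lower in F0 females (-1.88).

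Some of these values moved with single libraries. The call of Obp83g in INT held without INT female 1 or 2 and was lost without INT female 3 or any 1 INT male, with log2 fold changes from 1.05 to 2.80 and adjusted p up to 0.374. It stood at 1.03 without the 3 females with high Act88F (adjusted p = 0.354) and at 2.25 with RLE scaling (adjusted p = 0.0545). Obp19c rose to 3.73 in F0 without F0 male 1 and to 6.55 in NINT without NINT male 3. Without the 3 females with high Act88F its F0 value was 2.51 and was not called (adjusted p = 0.0542).

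Antennal genes were mostly lower in whole females, with 6 of 9 called lower in F0, 6 in INT and 8 in NINT and 0 higher. In F0, Obp56d was 265, 419.9 and 383 CPM in males, and its log2 fold change was -1.55. Obp19d in males was 239, 335 and 331 CPM in F0, 349.7, 336 and 191 CPM in INT and 236, 224 and 246 CPM in NINT. The median of the antennal list was -1.01, -0.92 and -1.25. Markers of antenna and olfactory neurons had medians of -0.59, -1.50 and -1.98, and eye markers -1.33, -1.29 and -0.84. Neuron markers stood at 0.43, -0.82 and -1.11. A lower level in whole females was thus not limited to the antennal members. Obp44a in males was 335, 388 and 417 CPM in F0, 423, 389 and 217 CPM in INT and 203, 232 and 222 CPM in NINT, and its log2 fold changes between the sexes were -1.31, -2.55 and -2.96.

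Obp99b was called lower in females in INT and NINT, at -4.11 and -7.27, and not in F0 (-0.92, adjusted p = 0.42). Its male levels were 74.4, 12.3 and 6.11 CPM in F0, 7.79, 32.3 and 16.7 CPM in INT and 46.3, 55.8 and 25.2 CPM in NINT, so F0 males spread more than 10-fold. Obp99c in males was 405, 403 and 269 CPM in F0, 237, 369 and 514 CPM in INT and 548, 479.8 and 376 CPM in NINT, with log2 fold changes of 0.38, -1.28 and -1.94. The first was not called and the others were.

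**Figure D4:**
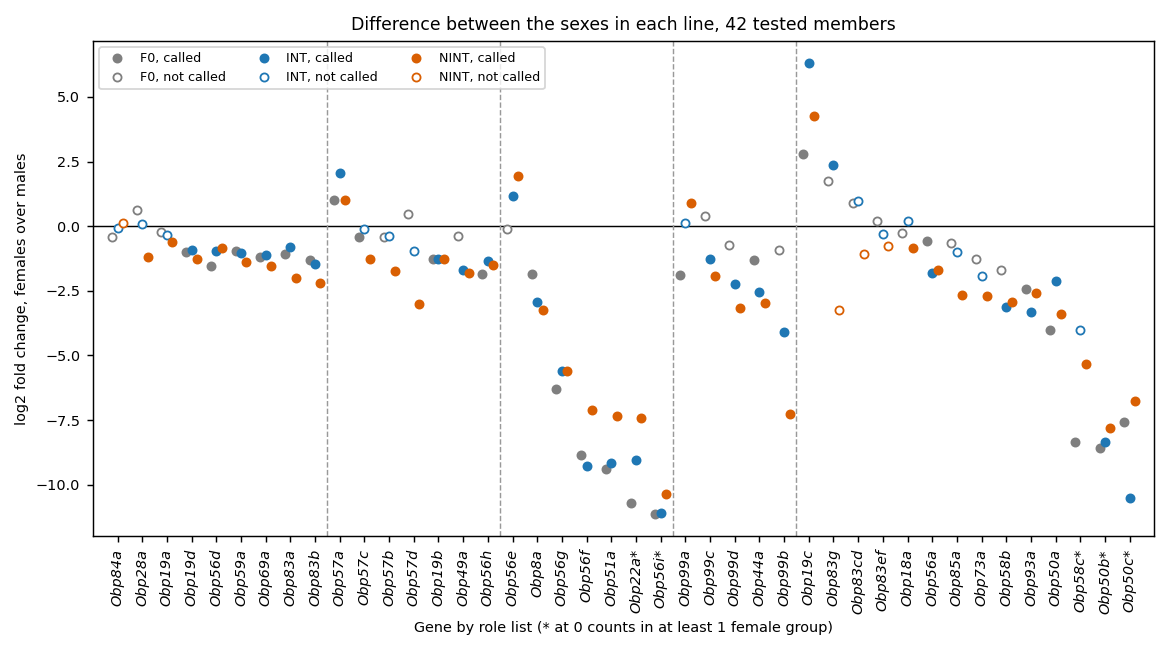
Log2 fold change of females over males in F0, INT and NINT for the 42 tested genes, ordered by role list (dashed lines separate antenna, taste, male reproductive, fat body and other), with filled points for called genes. Genes of the male reproductive list other than Obp56e lie below 0 in all 3 lines, and fitted values of genes marked with a star rest on a female group at 0 counts and are no bound.

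The members described next were not called between the lines by edgeR's test, though most were called lower in females. Obp56h, a gene linked to mating behaviour, was 0.791, 1.34 and 1.57 CPM in F0, 5.20, 3.79 and 1.93 CPM in INT and 3.31, 2.43 and 2.23 CPM in NINT males. Its log2 fold change was 1.59 in INT (adjusted p = 0.0715) and 1.23 in NINT (adjusted p = 0.0826). All F12 male libraries were above F0, but neither difference was called. In females it was 0.0400, 0.214 and 0.693 CPM in F0, 2.27, 1.09 and 0.906 CPM in INT and 0.867, 1.13 and 0.790 CPM in NINT. It was called lower in females in all 3 lines, at -1.87, -1.36 and -1.52 (adjusted p = 0.0156, 0.0405 and 0.0233). Those calls held in 4, 2 and 3 of 6 fits with a library left out. Obp19b, next to Obp19c, was 16.6, 23 and 20.8 CPM in F0, 20.7, 20.1 and 15.4 CPM in INT and 14.2, 12.3 and 14.4 CPM in NINT males, and between 4.65 and 10.3 CPM in all female libraries. It was lower in females in all 3 lines, at -1.26, -1.28 and -1.28, the opposite side from Obp19c, 108 bases away.

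Obp59a was between 0.951 and 4.03 CPM and Obp84a between 3.48 and 6.80 CPM over all 18 libraries. Obp59a was called lower in females in each line, at -0.95, -1.04 and -1.39, and Obp84a in none. Obp83ef and Obp93a stayed at or below 4.38 and 2.92 CPM. Obp93a was lower in females in each line, at -2.42, -3.32 and -2.59, and Obp83ef was called in none. Obp50a, Obp58b and Obp73a stayed at or below 0.848, 1.23 and 0.374 CPM. Obp50a was called lower in females in each line (-4.00, -2.13 and -3.38), Obp58b in INT and NINT (-3.11 and -2.95) and Obp73a in NINT (-2.70).

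Some members could not be separated from the genes they overlap, since 14 share exon bases with another gene. Obp47b shares all 611 of its exon bases with CG7741 on the opposite strand. It had at most 8 counts in 16 libraries, but 1252 counts in NINT male 1 and 2091 counts in NINT female 3. CG7741 had 21468 and 16064 counts in those libraries and 281 to 1355 counts in the other 16. Counts of Obp57d and Obp56e, described above, are shown with those of Cpr57A and CR44509 in the plot of overlapping pairs. Obp84a shares 663 bases with the gene listed as CG10050, Obp93a shares 492 bases with CG5793, and Obp83cd shares 92 bases with Obp83ef, so that their levels carry the same uncertainty.

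**Figure D5:**
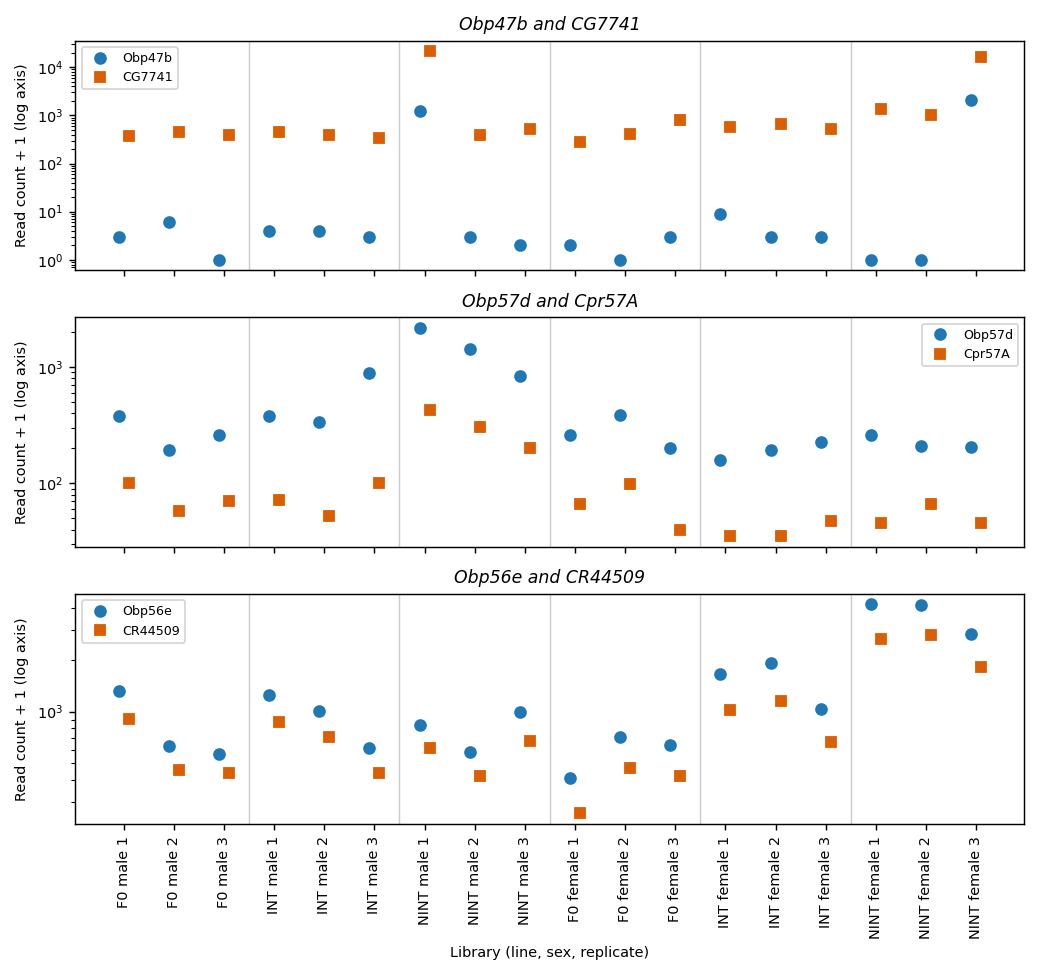
Read count + 1 on a log axis in each of the 18 libraries for Obp47b with CG7741, Obp57d with Cpr57A and Obp56e with CR44509. Obp47b and CG7741 are high together in NINT male 1 and NINT female 3, and CR44509 stays just below Obp56e in every library.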

How the data were processed

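The deposited tables, 1 for each sex, hold raw read counts per gene for 16747 entries and 18 libraries of whole flies, and 0 columns were left unmapped. Trizol extraction and a SMARTer stranded kit are given per the labels' protocols. The submitters' processing notes name the build dm6 and DESeq2, without versions; aligner, counter and strand setting were not given in the sources used here. Counts were fitted with edgeR 4.0.16 in R 4.3.3: 9 libraries per sex for the line comparisons, and 18 for the sex contrasts, the mean over sexes and the interactions. TMM scaling, filterByExpr (minimum count 10, minimum total 15), the two-sided quasi-likelihood test and an adjusted p under 0.05 were used. Levels are CPM with TMM-scaled library sizes, per kb of merged exons of the Ensembl BDGP6.54 annotation, which matched 51 of 51 members. Where a group had 0 counts, 3 counts summed over its libraries served as the floor, and such bounds and the exact 95% intervals cover counting error only.

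Members, role lists, marker lists and naming rule were chosen with earlier results of these data known. The rule named members called between INT, NINT and F0 within a sex, over both sexes or in the interaction, the 3 highest per kb in each group and, for each sex contrast, the 6 called with the largest fold change in each direction, 32 in all. Values of every library were due for 23, the 20 with the smallest adjusted p and the highest per kb; those of other members were added after their values were seen. Alternatives were DESeq2 1.42.0, RLE scaling, no low-count filter, ribosomal RNA entries left out (109 entries), the replicate number as a block, each library left out, and 2 settings without doubted libraries, which, like the interactions with F0, were added after the data were seen. Library totals were 31605198 to 58332629 counts. The fits were tested on simulated data. Tables and figures used Python 3.11.15, pandas 2.3.3 and matplotlib 3.10.9.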

Additional observations from a re-analysis of the deposited data

Results flagged for a closer look

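The difference of a line from F0 differed between the sexes, by an interaction test added after the data were seen, for Obp49a in both lines and for 10 further genes in NINT (edgeR's quasi-likelihood test, adjusted p under 0.05; the female value of the log2 fold change less the male one). The values for Obp49a were -1.32 in INT and -1.43 in NINT. In NINT the female difference was higher for Obp99a (2.78) and Obp56e (2.08). It was lower for Obp57d (-3.51), Obp99c (-2.31), Obp99b (-6.36), Obp28a (-1.82), Obp44a (-1.65), Obp57b (-1.34), Obp99d (-2.42) and Obp56a (-1.13). Adjusted p-values in NINT ran from 0.00386 to 0.0415. Obp49a, Obp99a and Obp57d kept the NINT call in all 12 fits that left out a library, and Obp99b kept it in 3.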

How the results depend on the processing

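Counts of called members moved with the processing in most line comparisons. DESeq2 gave 11 in INT against NINT females (4 by edgeR), 3 in INT against NINT males (0), 5 in their interaction with sex (0), 8 over both sexes (5), 8 in INT against F0 females (3), 4 in the INT interaction (1) and 17 in NINT against F0 males (7). The shares of all genes that it called were, in that order, 5.89%, 6.05%, 3.13%, 8.07%, 6.94%, 3.6% and 19.3%. Whether the replicate numbers pair the samples was not settled. Deviations from the group mean had correlations of -0.39 to 0.42 between same-numbered libraries, and differently numbered libraries were not compared. With the replicate number as a block the counts were 0 in INT against NINT females, 2 over both sexes, 1 in INT against F0 males, 2 in NINT against F0 males, 12 in NINT against F0 females (19 without it), 0 in the INT interaction and 4 in the NINT interaction (11 without it). Of all genes the block left, in that order, 0.0228%, 0.216%, 0.419%, 0.99%, 6.45%, 0% and 2.55% called. Without the 3 females with high Act88F the counts were 12 in INT against NINT females, 1 in INT against F0 females, 0 in the INT interaction and 3 in the NINT interaction, where 6.14%, 1.21%, 0.178% and 1.31% of all genes were called, and Obp83cd reversed to 0.37 in NINT against F0 females. The setting without the 4 males with yolk protein RNA leaves 1 library in 2 arms. It cannot decide which calls hold, so its counts are not given. The causes were not tested.

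Leaving out each library in turn gave 0 to 14 calls in INT against NINT males, 0 to 2 in females, 0 to 2 in the interaction and 2 to 12 over both sexes, and the highest count in males, in the interaction and over both sexes came without INT male 3, when 26.1%, 4.55% and 17.5% of all genes were called. Against F0 it gave 1 to 8 in INT males, 2 to 6 in NINT males, 0 to 13 in INT females and 9 to 23 in NINT females, with 0 to 8 and 4 to 18 in the interactions. Without F0 female 3, which gave the highest of these counts in females and in both interactions, 32.2% and 51.1% of all genes were called in INT and NINT females and 15.9% and 29.1% in the interactions. Between females and males it gave 24 to 28 calls in F0 flies, 27 to 29 in INT flies and 35 to 39 in NINT flies. RLE scaling, no filter and ribosomal RNA left out kept every count of calls within 1.5 times. Members under about 1 CPM rest on few reads, which limits their precision.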

Other observations

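The 2 libraries in which Obp47b was high were also high over the genes beside it, a pattern noticed after the values were seen. Of 19 entries within 25 kb of Obp47b on chromosome arm 2R, 10 stood more than 2-fold above every other library of the same sex in both NINT male 1 and NINT female 3, and over all chromosomes 12 entries did so. The gene sha, at the far end of that window, had 24448 and 17207 counts in the 2 libraries and at most 36 counts in any other. The odorant receptor gene Or47b had 2517 and 4190 counts there and at most 21 elsewhere, and nompA had 8915 and 14681 counts there and at most 319. The entries are on both strands. The sum of the antenna and olfactory neuron markers, which include Or47b, was 87.2 and 86.1 CPM in these libraries and 10.3 to 44.3 CPM in the other 16, and the lower value of Or47b in INT over both sexes rests on them. The cause was not tested.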
